A study of Rattus norvegicus with 9 samples.

Results

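The genes described here are 9 genes of acetylcholine signalling in the frontal cortex of adult male Wistar rats: the muscarinic receptors Chrm1, Chrm2, Chrm3 and Chrm4, the nicotinic receptor subunits Chrna4, Chrna5, Chrna7 and Chrnb2, and Ache, the gene of acetylcholinesterase. They were chosen by symbol among the 37209 genes of the count table, and all 9 were found there. Of the 9 genes, 8 passed the filter on low counts and were tested. The exception was Chrna5, which had at most 11 reads in any rat.

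The table holds 9 rats aged 14 weeks, all different animals, of which 3 belonged to the Control, 3 to the MS and 3 to the MS+EA group. Pups of the MS and MS+EA groups had been kept apart from the dam for 4 h daily between PND 1 and PND 21 (PND, postnatal day), whereas Control litters stayed with theirs until weaning. MS+EA rats were in addition given electroacupuncture (EA), which passes a weak current through needles, at the head acupoints Baihui and Yintang between PND 61 and PND 81. Per the study's methods, all 3 groups were anaesthetised with isoflurane on treatment days, and Control and MS rats had the anaesthesia alone. The labels' treatment note can also be read as naming Control and MS among the needled rats. The labels call the tissue frontal cortex and the study prefrontal cortex. The study also had a sham EA group, but its methods name only the Control, MS and EA groups as sequenced, and the table holds no sham rats. Dams were assigned to Control or to separation as a whole, so that litter and separation cannot be told apart.

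Acetylcholine reaches the cortex mainly along axons from the basal forebrain and from few local cholinergic neurons, and acts there on attention, arousal and plasticity. Muscarinic receptors are coupled to G proteins. The receptors encoded by Chrm1 and Chrm3 act through Gq and phospholipase C and excite pyramidal neurons, whereas those encoded by Chrm2 and Chrm4 act through Gi and often limit transmitter release, on cholinergic terminals among others. Nicotinic receptors are ion channels of 5 subunits, in the cortex chiefly heteromers of the alpha4 and beta2 subunits or homomers of alpha7. Acetylcholinesterase ends the signal by splitting acetylcholine.

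Total counts lay between 12479905 and 19007907 reads per rat, and the MS+EA rats had the lowest totals, at most 14913736. Values are given in CPM, counts scaled to a library of fixed size after TMM normalization, and a change was called at an adjusted p under 0.05 (edgeR's quasi-likelihood F test, Benjamini-Hochberg over 16837 genes) together with a fold change above 1.5. Levels are compared between rats only, since CPM is not corrected for gene length. The 6 markers of cortical excitatory neurons were all tested, and their summed level was between 1975 and 2030 CPM in Control, between 1834 and 1948 CPM in MS and between 1584 and 1789 CPM in MS+EA rats, so that no 2 groups overlapped. Slc17a7 alone made up between 73.8% and 80.6% of that sum, and without it the other 5 markers summed to 394 to 443 CPM in Control, 398 to 450 CPM in MS and 359 to 462 CPM in MS+EA rats, which overlapped. Red blood cell markers summed to 93.7 to 198 CPM in Control and endothelial markers to 125 to 145 CPM, below all 6 separated rats, which had 207 to 304 CPM and 148 to 177 CPM. From Control to MS+EA the endothelial marker Abcb1a had a log2 fold change of 0.42, and the other tested endothelial markers lay between -0.05 and 0.06. From Control to MS all tested endothelial markers lay between 0.22 and 0.35. Markers of cortical layers 6 and 6b summed to 254 to 301 CPM in Control, 223 to 239 CPM in MS and 246 to 268 CPM in MS+EA rats. On that list the MS rats lay below all others, and the Control and MS+EA rats overlapped. Interneuron markers summed to 464 to 499 CPM in Control, 457 to 603 CPM in MS and 458 to 618 CPM in MS+EA rats. The hypothalamic list summed to 48.2 CPM in the MS rat B4 and to at most 6.10 CPM in every other rat. In bulk tissue, fewer cells of a type and less RNA per cell cannot be told apart.

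None of the 8 tested genes was called in any of the 3 comparisons. In all 6 separated rats Chrm1 had lower and Chrm2 higher CPM than in any Control rat. Chrnb2 was lowest in MS+EA rats, where it passed the adjusted p against Control rats at a change of under 1.5-fold. Chrm3 was highest in MS rats and lower in MS+EA rats, and the CPM of the groups overlapped for Chrna7 and Ache in every comparison.

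From Control to MS, 0 of 8 genes were called by edgeR, against 0.0238% of all tested genes. At an unadjusted p under 0.05 there were 4 of 8, against 10.6% of all genes, and 2 of 8 without B4. Of these 4, Chrm2 was higher, against 7.06% of all genes, and Chrm1, Chrm4 and Chrna4 were lower, against 3.55%. The groups did not overlap in 4 of 8 genes, against 17.6%, with 2 higher (10%) and 2 lower (7.53%). The log2 fold change was below 0 in 5 of 8 genes, against 50.3%.

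For MS+EA and MS rats, 0 of 8 were called, against 0.0178% of all genes. Chrm3 and Chrnb2 had an unadjusted p under 0.05, 2 of 8 against 12.4%, and there was 1 without B4 and 1 without C16. Both were lower, against 6.42%, and 0 of 8 were higher, against 6.01%. The groups did not overlap in the same 2 of 8 genes, against 17.9%, which were lower (9.6%), and in 0 of 8 on the higher side (8.27%). In 5 of 8 genes the log2 fold change was below 0, against 49.9%.

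For MS+EA and Control rats, 0 of 8 were called, against 1.37%, and 5 of 8 had an unadjusted p under 0.05, against 22.5%. There were 3 with A1, A2 or C16 left out. Chrm2 was higher, against 11.9%, and Chrm1, Chrm4, Chrna4 and Chrnb2 were lower, against 10.6%. The groups did not overlap in 4 of 8 genes, against 25.9%, with 1 higher (13%) and 3 lower (12.9%). The log2 fold change was below 0 in 6 of 8, against 49.1%. Each group enters 2 of the 3 comparisons, so these counts are not independent of each other. Over the 8 genes the median log2 fold change was -0.13 from Control to MS, -0.02 from MS to MS+EA and -0.18 from Control to MS+EA. Over all tested genes these medians were 0.00, 0.00 and 0.01.

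**Figure D1:**
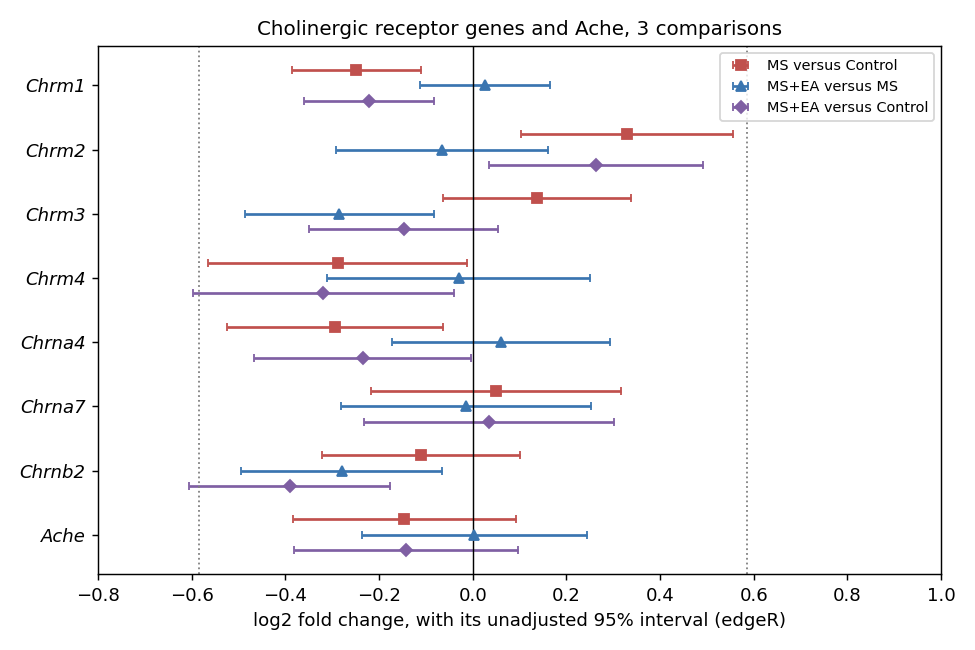
Log2 fold changes of the 8 tested genes (x axis) with their unadjusted 95% intervals from the edgeR fit, for MS versus Control (squares), MS+EA versus MS (triangles) and MS+EA versus Control (diamonds). The dotted lines mark a fold change of 1.5 in either direction, and no point lies beyond them. The values closest to them are -0.39 for Chrnb2 (MS+EA versus Control) and 0.33 for Chrm2 (MS versus Control).

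Chrm1 encodes the M1 receptor, the main excitatory muscarinic receptor of cortical pyramidal neurons. It had CPM values of 179 in A1, 164 in A2 and 171 in A6 (Control), 146 in B3, 137 in B4 and 149 in B6 (MS), and 142 in C3, 152 in C10 and 147 in C16 (MS+EA). The means were 171 ± 7.48, 144 ± 6.38 and 147 ± 4.94 CPM (SD, n = 3). All 6 separated rats lay below all 3 Control rats, and the MS and MS+EA rats overlapped. The summed markers of excitatory neurons, of red blood cells and of endothelial cells also parted the separated from the Control rats. The excitatory sum did so only with Slc17a7 included, and the endothelial sum of MS+EA rats mostly through Abcb1a. The part of the red blood cell and endothelial sums in the values of Chrm1 and Chrm2 was not tested. The log2 fold change of Chrm1 was -0.25 from Control to MS (SE 0.0639, adjusted p = 0.176 by edgeR), a difference of -15.8% with an unadjusted 95% interval from -23.5% to -7.33%. It was -0.22 from Control to MS+EA (SE 0.0641, adjusted p = 0.0624 by edgeR). Between MS+EA and MS rats it was 0.03, and the interval ran from -0.11 to 0.17. With DESeq2 in place of edgeR the adjusted p of Chrm1 was 0.0400 from Control to MS and 0.0244 from Control to MS+EA, and with edgeR's likelihood ratio test it was 0.0497 in the latter, all at a change under 1.5-fold. Relative to the summed excitatory markers, Chrm1 was still lower in every MS than in every Control rat, by -0.15 on the log2 scale, whereas between MS+EA and Control rats the difference was 0.01 and the rats overlapped. That sum was lower in the separated rats, so dividing by it raises every member there relative to Control rats.

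Chrm2 encodes the M2 receptor, an inhibitory receptor known from cholinergic terminals and from cortical interneurons. Its values ran the other way, with 17.2, 16.5 and 17.3 CPM in Control, 21.3, 19.4 and 23.4 CPM in MS, and 19.8, 19.7 and 21.8 CPM in MS+EA rats. The means were 17.0 ± 0.434, 21.4 ± 2.03 and 20.4 ± 1.16 CPM (SD, n = 3), and every separated rat was above every Control rat. The log2 fold change was 0.33 from Control to MS (SE 0.105, adjusted p = 0.273 by edgeR) and 0.26 from Control to MS+EA (SE 0.106, adjusted p = 0.161 by edgeR). The first of these is a difference of 25.6% with an interval from 7.33% to 47.0%. From MS to MS+EA the log2 fold change was -0.07, with an interval from -0.29 to 0.16. Relative to the summed excitatory markers, Chrm2 was higher in every separated rat than in every Control rat, by 0.42 in MS and 0.49 in MS+EA rats on the log2 scale.

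The ratio of the 2 genes within a rat does not depend on the scaling of the libraries. Chrm1 had 10.4, 9.92 and 9.86 reads for each read of Chrm2 in Control, 6.88, 7.06 and 6.36 in MS, and 7.14, 7.69 and 6.77 in MS+EA rats. The ratio of every Control rat was above that of every separated rat. This order follows from the CPM of the 2 genes given above, and so does the p of its permutation tests against Control rats, so neither is a further result. The mean log2 ratio differed by -0.57 between MS and Control rats and by -0.48 between MS+EA and Control rats, and each had an exact two-sided permutation p of 0.1, the smallest that 3 rats against 3 allow. Adjusted over the 15 tests of ratios, that p was 0.6. Leaving out any 1 rat, the difference between MS and Control rats stayed between -0.60 and -0.53. Between MS+EA and MS rats the difference was 0.09 (exact permutation p = 0.4).

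**Figure D2:**
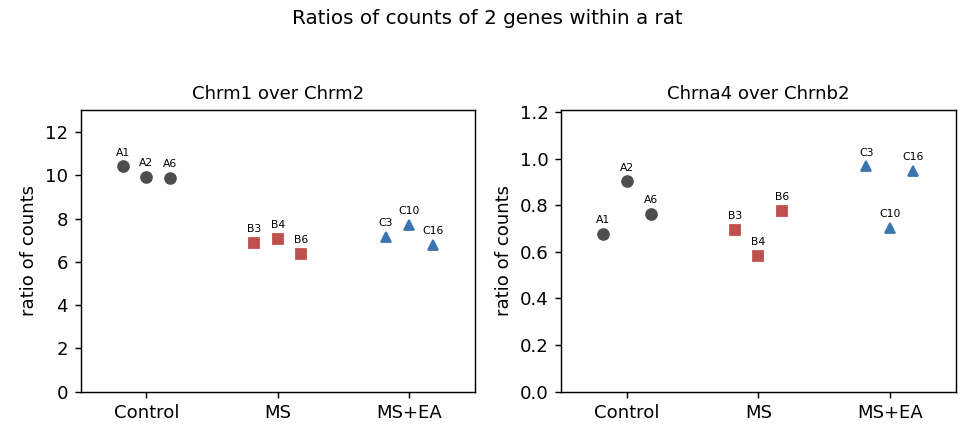
Ratio of counts of Chrm1 to Chrm2 (left) and of Chrna4 to Chrnb2 (right) in each rat, on linear axes from 0, with the name of the rat beside its point. On the left the Control rats lie between 9.86 and 10.4 and the separated rats between 6.36 and 7.69. On the right the 3 groups overlap.

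The start regions of these genes are shown for Chrm1 and Chrm2, whose values stood on opposite sides of the Control rats, and for Chrna4 and Chrnb2, whose products join in the same receptor. Each is the RefSeq sequence from 250 bases before to 50 after the start site, read 5′ to 3′ on the strand of the gene, in the build GRCr8. The reads were counted on Rnor_6.0, and the start sites in use in these rats were not measured. Capitals mark the GC box GGGCGG on either strand.
Chrm1, chr1:214996109-214996408, plus strand: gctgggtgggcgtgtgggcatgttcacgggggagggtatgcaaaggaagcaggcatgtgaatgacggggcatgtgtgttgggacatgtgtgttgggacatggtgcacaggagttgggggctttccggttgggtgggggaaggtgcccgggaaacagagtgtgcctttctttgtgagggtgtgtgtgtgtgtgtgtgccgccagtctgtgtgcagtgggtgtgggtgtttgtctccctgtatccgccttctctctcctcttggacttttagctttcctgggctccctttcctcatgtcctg
Chrm2, chr4:65982200-65982499, plus strand: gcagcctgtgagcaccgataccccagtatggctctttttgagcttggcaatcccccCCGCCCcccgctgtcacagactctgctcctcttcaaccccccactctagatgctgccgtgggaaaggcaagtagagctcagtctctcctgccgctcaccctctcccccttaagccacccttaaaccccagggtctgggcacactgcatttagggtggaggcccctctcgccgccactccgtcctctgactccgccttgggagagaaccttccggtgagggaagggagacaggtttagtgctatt
Chrna4, chr3:188534477-188534776, minus strand: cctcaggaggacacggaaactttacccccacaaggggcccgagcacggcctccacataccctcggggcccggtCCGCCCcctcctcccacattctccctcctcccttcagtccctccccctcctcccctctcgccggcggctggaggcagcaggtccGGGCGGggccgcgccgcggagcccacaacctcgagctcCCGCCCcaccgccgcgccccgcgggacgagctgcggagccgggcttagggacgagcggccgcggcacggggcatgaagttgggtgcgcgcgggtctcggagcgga
Chrnb2, chr2:177487257-177487556, minus strand: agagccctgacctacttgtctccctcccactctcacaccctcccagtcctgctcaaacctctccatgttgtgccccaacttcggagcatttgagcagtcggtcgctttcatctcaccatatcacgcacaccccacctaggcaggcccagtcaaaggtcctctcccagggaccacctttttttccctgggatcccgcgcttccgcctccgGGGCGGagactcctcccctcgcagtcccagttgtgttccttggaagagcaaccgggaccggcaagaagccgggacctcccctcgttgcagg
The 4 regions differ in base composition, with 7 CpG pairs in Chrm1, 10 in Chrm2, 35 in Chrna4 and 14 in Chrnb2, where the median over 33469 rat start regions was 7. The GC box was found in 8 of the 9 genes, all but Chrm1, and in 33.1% of all start regions of this length. Matches on both strands were counted, with 3 in Chrna4 and 1 each in Chrm2 and Chrnb2. The E-box CACGTG, which clock proteins and others of their class can bind, was found in Chrna7 and Ache among the 9, against 6.42% of all regions. Neither the cyclic AMP response element TGACGTCA nor TATAAA was found in any of the 9, against 1.83% and 14.2% of all regions.

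Chrm3 encodes the M3 receptor, which like M1 acts through Gq. It had 110, 106 and 106 CPM in Control, 118, 112 and 124 CPM in MS, and 80.96, 103 and 107 CPM in MS+EA rats. MS rats were above all others, and the low MS+EA mean owed much to C3. From MS to MS+EA the log2 fold change was -0.28 (SE 0.0930, adjusted p = 0.274 by edgeR), and it was -0.16 without C3. C3 was also the rat with the highest sum of oligodendrocyte markers (3906 CPM) and the lowest of excitatory markers (1584 CPM), whose part in the result was not tested. For Chrm3 the log2 fold change from Control to MS was 0.14 (SE 0.0924, adjusted p = 0.633 by edgeR) and from Control to MS+EA -0.15 (SE 0.0931, adjusted p = 0.377 by edgeR).

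Chrm4 encodes the M4 receptor, an inhibitory receptor that is also abundant in the striatum. It had 40.9, 42.9 and 54.9 CPM in Control, 43.0, 34.02 and 36.4 CPM in MS, and 38.0, 40.3 and 32.7 CPM in MS+EA rats. A6 was the highest of all rats, and the other Control rats lay within the range of the MS rats. The log2 fold change was -0.29 from Control to MS (SE 0.128, adjusted p = 0.455 by edgeR) and -0.15 without A6. From Control to MS+EA it was -0.32 (SE 0.129, adjusted p = 0.163 by edgeR) and -0.17 without A6. RefSeq places Mdk over part of Chrm4, and Mdk had log2 fold changes of 0.01 and -0.06 in these comparisons. The striatal list summed to 239 to 258 CPM in Control, 242 to 250 CPM in MS and 251 to 284 CPM in MS+EA rats.

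**Figure D3:**
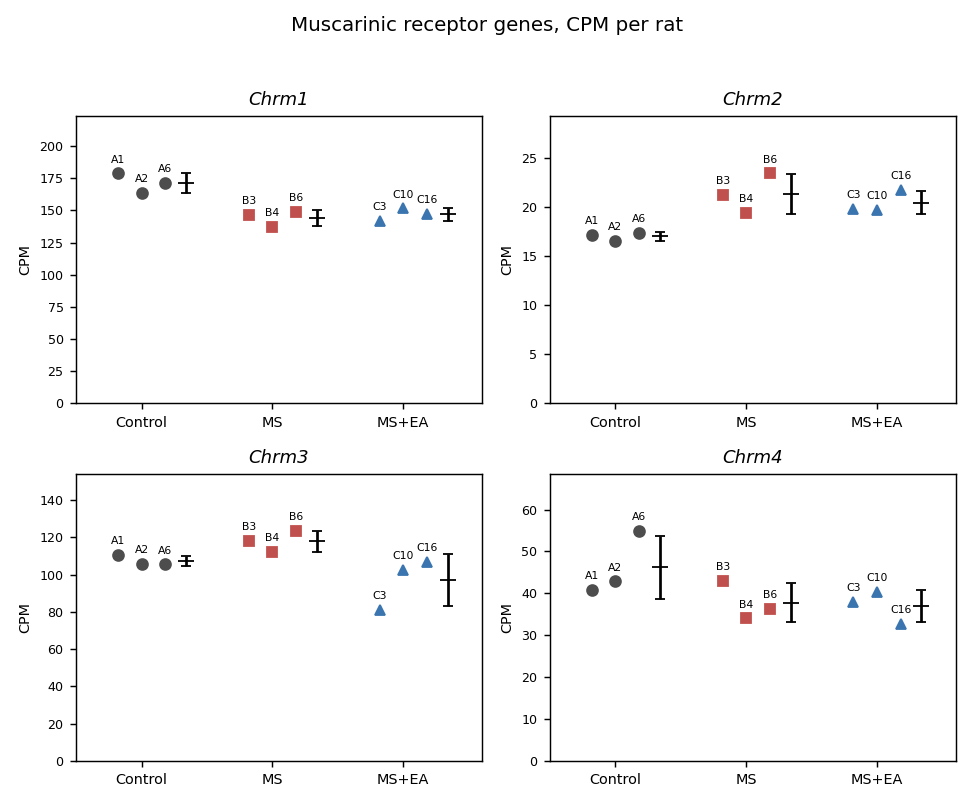
CPM of the 4 muscarinic receptor genes in each rat on linear axes from 0, with the mean and SD (n = 3) of each group as a bar to the right of its points. Chrm1 is lower and Chrm2 higher in all 6 separated rats than in any Control rat, while for Chrm3 the rat C3 (80.96 CPM) and for Chrm4 the rat A6 (54.9 CPM) stand apart.

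Among the nicotinic subunits, the products of Chrna4 and Chrnb2 form the main heteromeric receptor of the cortex. Both genes were lower in MS+EA than in Control rats at an unadjusted p under 0.05 by edgeR, against 10.6% of all genes. For Chrna4 that p was 0.0476, and the MS+EA and Control rats overlapped. Chrna4, the alpha4 subunit, had 45.7, 52.3 and 44.6 CPM in Control, 39.5, 35.3 and 41.4 CPM in MS, and 46.1, 36.3 and 38.8 CPM in MS+EA rats. All MS rats were below all Control rats, while the MS+EA rat C3 was within the Control range. The log2 fold change was -0.30 from Control to MS (SE 0.106, adjusted p = 0.323 by edgeR), 0.06 from MS to MS+EA (SE 0.108, adjusted p = 0.859 by edgeR) and -0.23 from Control to MS+EA (SE 0.107, adjusted p = 0.217 by edgeR). In the last comparison the unadjusted p of Chrna4 was above 0.05 with total counts, and with edgeR's likelihood ratio test. It was also above 0.05 with the stricter filter on counts and with only the compared rats. The same held with A1, A2, C10 or C16 left out, but not with A6 or C3 left out. In the remaining settings it stayed under 0.05. RefSeq places Col20a1 over part of Chrna4. Col20a1 had a log2 fold change of -0.34 from Control to MS and 0.45 from MS to MS+EA, and a sharing of reads between these genes was not tested. Relative to the summed excitatory markers the log2 difference of Chrna4 was -0.20 from Control to MS, where the rats did not overlap, and -0.01 from Control to MS+EA, where they did.

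Chrnb2, the beta2 subunit, had 67.6, 58.0 and 58.5 CPM in Control, 57.0, 60.4 and 53.2 CPM in MS, and 47.7, 51.7 and 40.9 CPM in MS+EA rats. The means were 61.4 ± 5.40, 56.9 ± 3.60 and 46.8 ± 5.43 CPM (SD, n = 3). MS+EA rats lay below all other rats, and the MS and Control rats overlapped. From Control to MS+EA the log2 fold change was -0.39 (SE 0.0989, adjusted p = 0.0411 by edgeR), a difference of -23.7% with an interval from -34.3% to -11.5%. In the quasi-likelihood fit of edgeR, Chrnb2 alone of the 8 tested genes had an adjusted p under 0.05 in any comparison, against 5.4% of all tested genes in that comparison, and its change was under 1.5-fold. Over the 9 alternatives its adjusted p lay between 0.00798 and 0.0602, and with a rat left out between 0.0434 (C10) and 0.172 (A1). From MS to MS+EA the log2 fold change was -0.28 (SE 0.0992, adjusted p = 0.304 by edgeR), and from Control to MS it was -0.11 (SE 0.0977, adjusted p = 0.728 by edgeR). The summed excitatory markers were also lowest in MS+EA rats. Relative to them the log2 difference of Chrnb2 between MS+EA and Control rats was -0.16, and the rats overlapped.

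The ratio of Chrna4 to Chrnb2 reads was 0.676, 0.902 and 0.762 in Control, 0.694, 0.584 and 0.777 in MS, and 0.967, 0.702 and 0.948 in MS+EA rats. The groups overlapped in all 3 comparisons, and the exact permutation p was 0.2 for MS+EA relative to MS rats and 0.5 for the other 2 comparisons.

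Chrna7 forms the fast homomeric alpha7 channel, which passes calcium. It had 65.0, 70.9 and 66.5 CPM in Control, 74.4, 62.5 and 72.6 CPM in MS, and 57.2, 85.0 and 65.0 CPM in MS+EA rats, whose range enclosed that of all the others. The log2 fold changes were 0.05 (MS relative to Control), -0.01 (MS+EA relative to MS) and 0.03 (MS+EA relative to Control), with intervals reaching from -0.28 to 0.32 over the 3 comparisons. Differences between -17.8% and 24.4% thus lie within one or another of these intervals. Relative to the summed excitatory markers, Chrna7 was higher in every MS+EA than in every Control rat, by 0.24 on the log2 scale. That sum was lowest in MS+EA rats, which raises every member on this scale, whereas the CPM of Chrna7 overlapped between these groups.

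Chrna5 encodes an accessory subunit that joins alpha4 and beta2 and is known from the deep layers of the cortex. Its reads were 7, 5 and 2 in Control, 7, 1 and 3 in MS, and 4, 11 and 5 in MS+EA rats. The rats A6, B4 and B6 were at or under the detection floor of 3 reads. With every gene of at least 1 read tested, its log2 fold change was 1.08 from MS to MS+EA (adjusted p = 0.740 by edgeR) with an interval from -0.50 to 2.67. A difference between the groups was therefore not detectable at this depth.

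**Figure D4:**
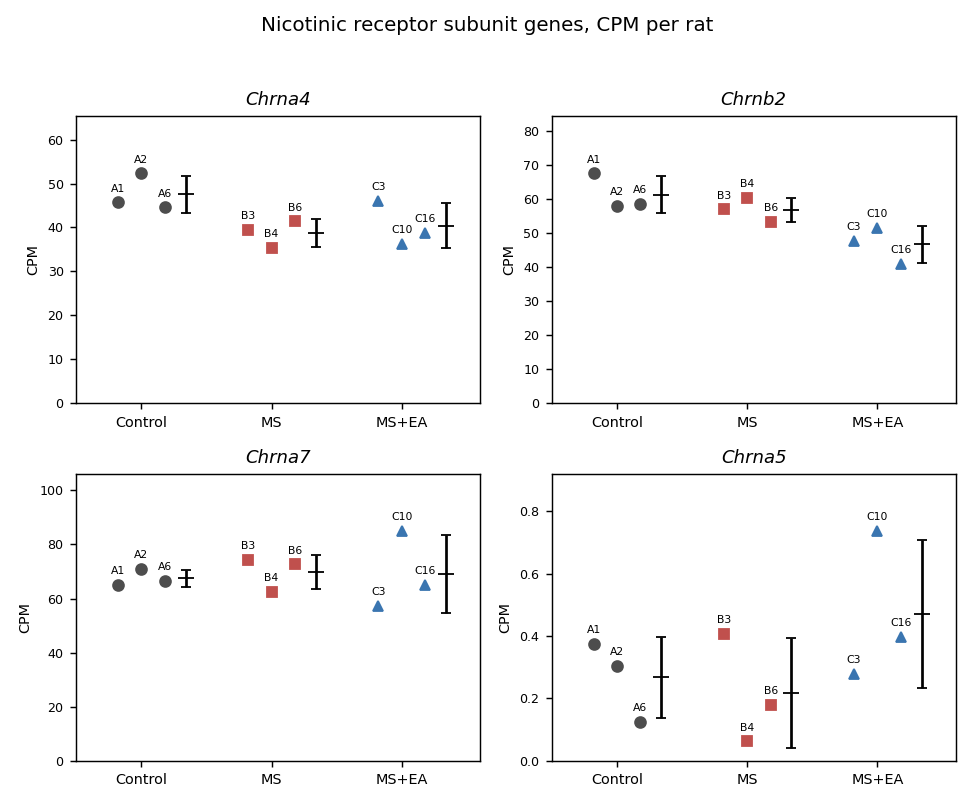
CPM of Chrna4, Chrnb2, Chrna7 and Chrna5 in each rat on linear axes, with the mean and SD (n = 3) of each group as a bar to the right of its points. Chrnb2 is lowest in the MS+EA rats (40.9 to 51.7 CPM), and Chrna5 stays under 1 CPM in all 9 rats.

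Ache had 39.1, 38.7 and 36.9 CPM in Control, 39.6, 33.1 and 31.0 CPM in MS, and 31.0, 33.8 and 39.2 CPM in MS+EA rats. All groups overlapped. The log2 fold change was -0.15 from Control to MS (SE 0.110, adjusted p = 0.676 by edgeR), 0.00 from MS to MS+EA (SE 0.111, adjusted p = 0.995 by edgeR) and -0.14 from Control to MS+EA (SE 0.111, adjusted p = 0.484 by edgeR). Without B3, the value from Control to MS was -0.26 with an unadjusted p of 0.0393 in the edgeR fit.

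The spread between rats of a group differed among the 8 genes. The coefficient of variation of CPM in Control rats was between 2.53% for Chrm3 and 16.4% for Chrm4, and in MS+EA rats between 3.36% for Chrm1 and 20.7% for Chrna7. Counting error alone gave between 1.85% and 5.87% in Control rats. Chrm2 in Control rats, at 2.55%, and Ache, at 3.14%, varied by less than their counting errors of 5.87% and 3.91%.

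Other genes of the cholinergic system were read beside these. Butyrylcholinesterase, encoded by Bche, is the second enzyme that splits acetylcholine. Its values were 6.16, 6.28 and 5.28 CPM in Control, 5.95, 7.51 and 6.61 CPM in MS, and 8.33, 11.4 and 8.82 CPM in MS+EA rats. The means were 5.91 ± 0.542, 6.69 ± 0.781 and 9.51 ± 1.65 CPM (SD, n = 3), and all MS+EA rats were above all others. Bche rose from Control to MS+EA, with a log2 fold change of 0.69 (SE 0.171, adjusted p = 0.0390 by edgeR). It was called under all 8 other tests, scalings and filters in which it was fitted, and the call was lost without A1, A2, A6, C10 or C16, where each rat left out in turn gave a log2 fold change between 0.53 and 0.78. From MS to MS+EA it was 0.51 (adjusted p = 0.282 by edgeR), and from Control to MS 0.18 (adjusted p = 0.761 by edgeR). The endothelial markers summed to 125 to 145 CPM in Control, 157 to 177 CPM in MS and 148 to 161 CPM in MS+EA rats, and the oligodendrocyte markers to 1953 to 3016 CPM, 1675 to 2721 CPM and 1890 to 3906 CPM. Their part in the result was not tested. The partners Prima1 and Colq, which anchor the cholinesterases, were not called, and 0 of the 2 had an unadjusted p under 0.05 in any comparison. Of all genes, 10.6% (MS versus Control), 12.4% (MS+EA versus MS) and 22.5% (MS+EA versus Control) had such a p.

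Of 13 further receptor genes, 5 were tested, and Chrnb3 was called from Control to MS+EA. Chrnb3 passed the filter on low counts only through the separated rats, where it was high, so its call is not independent of that filter. It had 2, 3 and 0 reads in Control and 51, 21 and 58 reads in MS+EA rats. The mean CPM of the MS+EA rats was 18.03 times a floor of 3 reads per Control rat. The log2 fold change was 4.91 with an interval from 2.40 to 7.42 (adjusted p = 0.0329 by edgeR). The MS rats had 15, 170 and 25 reads, of which B4 held most, and their mean CPM was 24.5 times the same floor. From Control to MS the log2 fold change was 5.36 with an interval from 2.91 to 7.80 (adjusted p = 0.113 by edgeR), and 3.50 without B4. Chrnb3 was called from Control to MS in 3 of 7 other settings. Its adjusted p was 0.00392 by DESeq2, 8.6e-05 by edgeR's likelihood ratio test and 2.15e-05 by edgeR with every gene of at least 1 count. It was also called with B3 left out (adjusted p = 0.0462 by edgeR). The call from Control to MS+EA was lost without A1, A2, A6 or C16 and with 1 of the 7 other settings in which it was fitted. From MS to MS+EA its edgeR adjusted p was 0.843. The markers of thalamus and habenula, where Chrnb3 is known, summed to 43.2 to 53.2 CPM in Control, 41.9 to 60.2 CPM in MS and 47.3 to 65.6 CPM in MS+EA rats. This sum holds genes that ran in opposite directions from Control to MS, with log2 fold changes of 0.52 for Prkcd and -0.87 for Slc17a6. Their part in the values of Chrnb3 was not tested. The other tested receptor genes, Chrm5, Chrna2, Chrna3 and Chrnb1, had edgeR adjusted p values between 0.325 and 0.993 over the 3 comparisons. The remaining 8 of the 13 had at most 12 reads in any rat.

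The Ly6 proteins Ly6h and Ly6e are small membrane proteins of a family that binds nicotinic receptors. Ly6h had 80.8, 74.3 and 68.2 CPM in Control, 56.7, 64.5 and 59.4 CPM in MS, and 49.5, 58.0 and 46.4 CPM in MS+EA rats. Both separated groups lay below the Control rats. From Control to MS+EA the log2 fold change was -0.54 for Ly6h (SE 0.0970, adjusted p = 0.0128 by edgeR) and -0.34 for Ly6e (SE 0.0687, adjusted p = 0.0201 by edgeR), both under 1.5-fold and so not called. With A6 or C10 left out Ly6h was called (adjusted p = 0.0221 and 0.0144 by edgeR). With A1 left out neither gene had an adjusted p under 0.05 (0.0703 for Ly6h and 0.0958 for Ly6e by edgeR), nor had Ly6e with C16 left out (0.0589). Of the 8 tested chaperones and Ly6 modulators, these 2 had an unadjusted p under 0.05 in each of the 3 comparisons, both with lower values, against 3.55%, 6.42% and 10.6% of all tested genes with lower values in the same order. The list's median log2 fold change was -0.12 (MS relative to Control), -0.12 (MS+EA relative to MS) and -0.13 (MS+EA relative to Control).

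**Figure D5:**
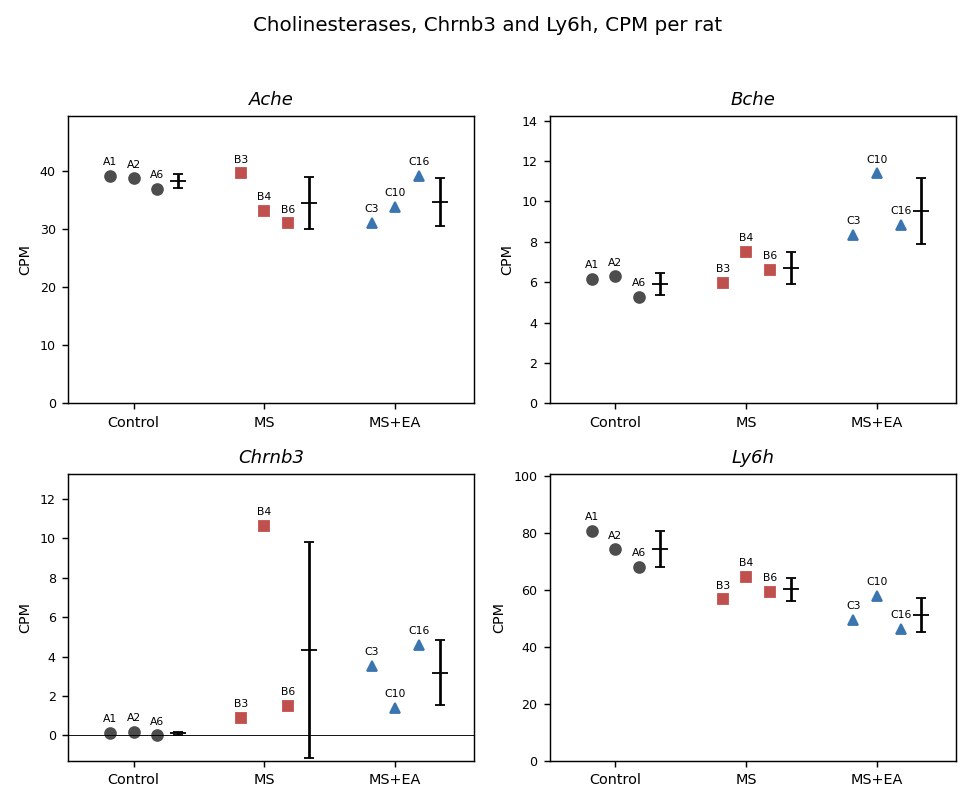
CPM of Ache, Bche, Chrnb3 and Ly6h in each rat on linear axes, with the mean and SD (n = 3) of each group as a bar to the right of its points. Bche is above 8 CPM in the 3 MS+EA rats alone, the MS mean of Chrnb3 rests on B4 (10.6 CPM), so that its SD bar reaches below 0, and Ly6h is lower in all separated rats than in any Control rat.

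Genes of cholinergic neurons themselves were sparse. Chat, which makes acetylcholine, had 28, 22 and 30 reads in Control, 14, 14 and 27 in MS, and 14, 22 and 5 in MS+EA rats. The choline transporter gene Slc5a7 had between 17 and 63 reads. By edgeR, 0 of the 6 genes of acetylcholine synthesis and transport, all tested, were called in any comparison. Of all genes, 0.0238% (MS versus Control), 0.0178% (MS+EA versus MS) and 1.37% (MS+EA versus Control) were called. Acly and Slc44a2, 2 of the 6, were lower at an unadjusted p under 0.05 from Control to MS+EA, against 10.6% of all genes. From MS to MS+EA 1 of the 6, Acly, was lower at that threshold, against 6.42%. The summed list of cholinergic neuron markers lay between 4.15 and 5.46 CPM in Control, 4.37 and 5.29 CPM in MS and 2.62 and 4.58 CPM in MS+EA rats, and Isl1 had 0 reads in every rat.

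Among the 12 tested genes of muscarinic signalling, 0 were called in any comparison, against 0.0238%, 0.0178% and 1.37% of all genes in the same order of comparisons. Kcnq3, a subunit of the M current channel that muscarinic receptors close, and Plcb1, a phospholipase C of the Gq pathway, were higher from Control to MS at an unadjusted p under 0.05, with log2 fold changes of 0.27 (adjusted p = 0.400 by edgeR) and 0.32 (adjusted p = 0.394 by edgeR). These were 2 of the 12, against 7.06% of all genes on the higher side. From MS to MS+EA, 4 of the 12 had an unadjusted p under 0.05, all lower, against 6.42% of all genes, among them Rgs4 (log2 fold change -0.26) and Gna14 (-0.48). From Control to MS+EA there were 2 of the 12, both lower, against 10.6% of all genes on the lower side and 22.5% on either side. They were the G protein genes Gna11, with a log2 fold change of -0.30 (adjusted p = 0.0624 by edgeR), and Gnai2, with -0.26 (adjusted p = 0.0750 by edgeR).

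The tested gene whose log2 CPM ran most like that of a member over the 9 rats was Fam171a2 for Chrnb2, with a Pearson correlation of 0.98 and a Spearman correlation of 0.98. For the other 7 members the closest genes, in the order Chrm1, Chrm2, Chrm3, Chrm4, Chrna4, Chrna7 and Ache, were Chaf1a, LOC103692512, Nkiras1, Rab36, Mad1l1, Dok6 and LOC102555635, with Pearson correlations between 0.94 and 0.96. These are the highest values out of all tested genes, they include differences between the groups, and they are given as a description.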

How the data were processed

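Total RNA of the frontal cortex of 9 rats, depleted of rRNA, was sequenced by the authors on an Illumina instrument. The authors deposited whole-number counts of reads per gene without normalization, after quality filtering with FastQC and mapping to Rnor_6.0 with HISAT2, whose version is 2.0.4 in the submitters' processing notes. The counting program, its strand setting and the treatment of reads with several locations are not given in the sources used here, so reads of overlapping genes cannot be told apart.

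Groups were taken from the sample titles. Counts were normalized by TMM, filtered by filterByExpr (minimum count 10) and fitted with edgeR 4.0.16 in R 4.3.3, with 1 mean per group over all 9 rats. The SE of a fold change was derived from F. The fit was tested on simulated data. Alternatives used DESeq2 1.42.0, limma 3.58.1 (limma-trend), other scalings, other filters, fewer samples and the omission of each rat. The ratio to excitatory markers was chosen after seeing the data. Sources name no batch, and the litter of each rat is not given in the sources used here. The p-values treat the rats of a group as independent replicates, and may be too small if rats of a group shared a litter. The paper's EBSeq was not run.

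The members and lists of genes were chosen with earlier results of these data known. Named genes are the members, up to 3 genes per list and comparison with the smallest unadjusted p, and 1 most alike gene per member. The values of 1 listed gene are not reported here. Mdk and Col20a1 were added because RefSeq (GRCr8) places them over members. RefSeq also places genes over Chrm2, Chrm3, Chrna5 and Ache. Of these, only Mir490 and LOC102554507, both over Chrm2, were found in the count table. They had at most 5 and 14 reads in any rat and were not tested. All 9 members matched the RefSeq table of start regions.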

Additional observations from a re-analysis of the deposited data

How the results depend on the processing

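Over the alternative tests, scalings, filters and sample sets, 214 of 216 log2 fold changes of members kept their direction, and none of them passed both thresholds. The adjusted p alone crossed 0.05 for Chrm1 (with DESeq2, 0.0400 in MS versus Control and 0.0244 in MS+EA versus Control, and 0.0497 in the latter with edgeR's likelihood ratio test) and for Chrnb2 in MS+EA versus Control (0.0534 with total counts and 0.0602 with the 6 rats alone, both by edgeR). The other 2 were near 0 and turned sign with total counts in place of TMM, in MS+EA relative to MS rats, to 0.012 for Chrm4 and 0.025 for Chrna7. With a rat left out, 13 of 144 turned sign, where the ranges in MS+EA relative to MS rats were -0.0023 to 0.058 for Chrm1, -0.12 to 0.0055 for Chrm2, -0.096 to 0.072 for Chrm4, -0.040 to 0.13 for Chrna4, -0.19 to 0.11 for Chrna7 and -0.092 to 0.11 for Ache, and in MS+EA relative to Control rats -0.14 to 0.16 for Chrna7. Relative to the summed excitatory markers, chosen after seeing the data, the log2 difference turned sign to 0.0083 for Chrm1, 0.073 for Chrm3 and 0.083 for Ache in MS+EA relative to Control rats, and to 0.071 for Chrm2, 0.10 for Chrm4 and 0.10 for Chrna7 in MS+EA relative to MS rats. In MS+EA relative to Control rats it also shrank from -0.39 to -0.16 for Chrnb2, from -0.32 to -0.085 for Chrm4 and from -0.23 to -0.0091 for Chrna4. In MS+EA relative to MS rats it shrank from -0.28 to -0.16 for Chrm3 and from -0.28 to -0.15 for Chrnb2. In MS relative to Control rats it shrank from -0.25 to -0.15 for Chrm1, from -0.29 to -0.19 for Chrm4 and from -0.30 to -0.20 for Chrna4. It also shrank there from -0.11 to -0.011 for Chrnb2 and from -0.15 to -0.057 for Ache. The sum rests mostly on Slc17a7. Differences above 0 grew on that scale. In MS relative to Control rats Chrm2 went from 0.33 to 0.42, Chrm3 from 0.14 to 0.23 and Chrna7 from 0.05 to 0.14. In MS+EA relative to MS rats Chrm1 went from 0.03 to 0.16, without overlap, Chrna4 from 0.06 to 0.19 and Ache from 0.0036 to 0.14. In MS+EA relative to Control rats Chrm2 went from 0.26 to 0.49 and Chrna7 from 0.03 to 0.24, both without overlap. On that scale Chrm1 stayed lower (-0.15) and Chrm2 higher (0.42) in every MS rat than in every Control rat. Dividing by the same sum shifts all members of a comparison by nearly the same amount, upward where the sum was lower. The mean sum was 2005.8 CPM in Control, 1875.5 CPM in MS and 1712.9 CPM in MS+EA rats. These shifts are thus not separate results for each gene, and why the sum differed was not tested. Without a fold change threshold, 1 member (Chrnb2) was called in MS+EA relative to Control rats. With a rat left out, 0 members were called in any comparison, and the number at an unadjusted p under 0.05 lay between 2 and 5 (MS versus Control), 1 and 2 (MS+EA versus MS) and 3 and 5 (MS+EA versus Control). Over all genes the called number ranged over the alternatives from 3 to 207, from 0 to 72 and from 228 to 910 in these comparisons, against 4, 3 and 230, and with a rat left out from 2 to 22, 1 to 4 and 71 to 261. No paired analysis was possible because the groups hold different rats, which no label pairs. Depth limits Chrna5 and Chat, with few reads each.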
